A study of Rattus norvegicus with 119 samples.

Results

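The 7 genes described here, Epcam, Cdh1, Cldn3, Cldn4, Cldn7, Esrp1 and Grhl2, were chosen as components of epithelial junctions and as regulators of the epithelial state. They were followed through tissue, dissociated cells and single cells of the newborn female rat urethra. All 7 were counted in the Tag-seq, RNA-seq and single-cell files, 7 of 32662 genes in all, and each was among the 18445 transcripts that passed the count filter used for testing (above 1 CPM, the count scaled to the library's total, in at least 1 of the 4 bulk libraries). Tissue came from the urogenital sinus of Wistar rats on the day of birth (P0). One part was the Ventral Mesenchymal Pad (VMP), a mesenchymal condensation able to induce prostatic growth. The other was the adjacent urethra (SU), which held smooth muscle, stroma and urethral epithelium.

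Both tissues were pooled over many animals, and each was profiled in 3 ways. Tag-seq, which sequences 1 short tag next to an NlaIII site in each transcript, was made from whole microdissected tissue. RNA-seq was made from a small sample of the cells released from such tissue with collagenase. These cells had passed through a strainer that held back epithelial sheets and clumps. Single-cell RNA-seq was made on a microfluidic chip from cells released in the same way and gave 49 VMP and 66 SU cells. There was 1 library per tissue for each of Tag-seq and RNA-seq and 1 pool of cells per tissue, so within an assay a difference between tissues has no replicate, and the single cells are not replicates of a tissue. Comparing RNA-seq with Tag-seq asks which transcripts were lower once tissue had been dissociated, but here the dissociation and the change of assay cannot be told apart.

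Epithelial cells form sheets because neighbouring cells are joined by adherens junctions, tight junctions and desmosomes. Epcam is an adhesion molecule of epithelial membranes, and Cdh1 is E-cadherin, the core of the epithelial adherens junction. Cldn3, Cldn4 and Cldn7 are claudins, the proteins that seal tight junctions. Esrp1 is an RNA-binding protein that directs epithelium-specific splicing, including that of FGF receptors, and Grhl2 is a transcription factor that maintains epithelial identity and acts on junction genes. Fibroblasts and smooth muscle generally express none of the 7 strongly.

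In the Rnor_6.0 annotation, Epcam (ENSRNOG00000015667) lay on chromosome 6 from 11281964 to 11298216 and Cdh1 (ENSRNOG00000020151) on chromosome 19 from 38768467 to 38838395. Both Cldn3 (ENSRNOG00000046007, 21831342 to 21832813) and Cldn4 (ENSRNOG00000001476, 24761210 to 24763005) lay on chromosome 12. Cldn7 (ENSRNOG00000017325) lay on chromosome 10 from 56576428 to 56578626. Esrp1 (ENSRNOG00000008184) lay on chromosome 5 from 24576991 to 24631698, and Grhl2 (ENSRNOG00000007000) on chromosome 7 from 76059386 to 76197856.

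The promoters of 3 members were read from RefSeq (build GRCr8). They are shown because the repressors of the epithelial state followed below, of the Snai and Zeb families, are known to bind the letters CACCTG, which on the other strand read as CAGGTG. Each line gives the 250 bases before the transcription start, 5′ to 3′ along the gene, with these letters in capitals. The windows are chr6:12649679-12649928 (minus strand) for Epcam, chr12:27346548-27346797 (minus strand) for Cldn3 and chr10:55188420-55188669 (plus strand) for Cldn7.
Epcam: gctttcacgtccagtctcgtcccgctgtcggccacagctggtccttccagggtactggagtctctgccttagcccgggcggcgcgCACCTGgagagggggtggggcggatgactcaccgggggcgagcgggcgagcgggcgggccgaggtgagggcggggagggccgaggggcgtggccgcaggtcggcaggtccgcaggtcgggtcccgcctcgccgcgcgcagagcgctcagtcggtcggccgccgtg
Cldn3: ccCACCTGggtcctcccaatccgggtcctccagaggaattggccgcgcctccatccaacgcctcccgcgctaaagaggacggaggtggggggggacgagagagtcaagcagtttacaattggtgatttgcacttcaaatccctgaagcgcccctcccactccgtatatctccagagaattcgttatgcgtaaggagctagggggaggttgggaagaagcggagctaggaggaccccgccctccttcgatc
Cldn7: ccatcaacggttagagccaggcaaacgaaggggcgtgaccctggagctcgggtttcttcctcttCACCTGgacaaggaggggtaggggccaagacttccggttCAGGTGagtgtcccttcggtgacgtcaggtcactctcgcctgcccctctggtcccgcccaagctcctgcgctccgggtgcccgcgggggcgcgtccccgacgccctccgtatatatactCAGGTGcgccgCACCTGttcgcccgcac

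The letters occurred once in the Epcam window, once in that of Cldn3 and 4 times in that of Cldn7. They were found on either strand in 15.9% of 33469 rat promoter windows, and 10 of those (0.0299%) held at least 4. The letters AACNNGTT, bound by Grainyhead factors such as Grhl2, were in none of the 3 windows and in 3.6% of all. A match is a description of the letters and not of binding. No entry was used for Cdh1, Cldn4, Esrp1 or Grhl2.

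Total counts on transcripts were 7870450 in VMP and 8215177 in SU for Tag-seq, and 4397699 in VMP and 7007767 in SU for RNA-seq. Single cells held 199849 to 1488320 counts each. A transcript with 3 counts, the most that a count of 0 allows, had a level of 0.365 to 0.682 CPM in the bulk libraries. The summed level of 7 matched genes of 10 mesenchymal genes listed (Col1a1, Col3a1, Dcn, Lum, Pdgfra, Pdgfrb and Cdh11) was 46143 CPM in VMP Tag-seq, 23299 in SU Tag-seq, 22224 in VMP RNA-seq and 50808 in SU RNA-seq, so the mesenchymal signal was present in every library. Intervals given below are 95% intervals for counting error alone. They do not cover the differences between animals, pools or library preparations, or which cells entered the small sample used for RNA-seq.

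In whole tissue all 7 genes were present and all 7 were lower in VMP than in SU. Together they took 7959 CPM of the SU library (7898 to 8020) and 485 CPM of the VMP library (470 to 501), 16.4 times less. In bulk samples fewer epithelial cells and less RNA per cell cannot be told apart. Epcam alone made up 69.4% of the 7 genes' Tag-seq counts in SU and 56.3% in VMP, with Cldn4 next at 15% and 25.5%. A tag is counted once per transcript, so these shares do not depend on transcript length.

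**Figure D1:**
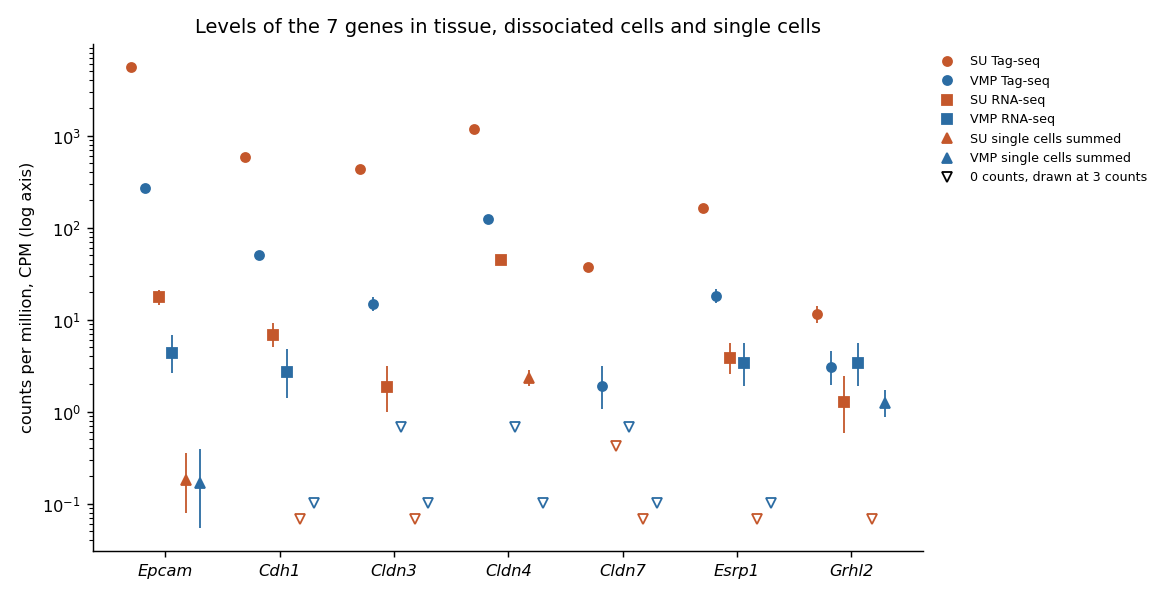
Level in CPM (log axis) of each of the 7 genes in the 4 bulk libraries and in the summed single cells of each tissue, with exact 95% Poisson intervals as bars and open triangles at the level of 3 counts where none was seen. Every gene has its highest value in SU Tag-seq, from 11.4 CPM for Grhl2 to 5526 CPM for Epcam, and the single cells lie at or under 2.31 CPM.

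Epcam had 2150 counts in VMP Tag-seq and 45395 in SU Tag-seq, which is 273 and 5526 CPM. With library sizes scaled by edgeR's TMM method, the log2 ratio of VMP over SU was -4.51 (-4.57 to -4.45). Cdh1 had 397 counts (50.4 CPM) in VMP and 4809 (585 CPM) in SU, a log2 ratio of -3.71 (-3.86 to -3.56). Both adhesion genes were thus well measured in VMP tissue, far above the floor of 3 counts, and their intervals lie far from 0.

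The claudins differed among themselves in level but not in direction. Cldn4 had 973 counts in VMP (124 CPM) and 9820 in SU (1195 CPM), a log2 ratio of -3.45 (-3.54 to -3.35). Cldn3 had 117 counts in VMP (14.9 CPM) and 3610 in SU (439 CPM), with the lowest ratio of the 7 at -5.05 (-5.34 to -4.79). Cldn7 was the sparsest claudin, with 15 counts in VMP (1.91 CPM) and 307 in SU (37.4 CPM), a ratio of -4.42 (-5.32 to -3.72). The intervals of Cldn3 and Cldn4 did not overlap, while that of Cldn7 overlapped with Cldn3 alone.

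The regulators had lower Tag-seq levels than the adhesion genes. Esrp1 had 143 counts in VMP (18.2 CPM) and 1347 in SU (164 CPM), a log2 ratio of -3.34 (-3.61 to -3.10). Grhl2 had 24 counts in VMP (3.05 CPM) and 94 in SU (11.4 CPM), a ratio of -2.06 (-2.79 to -1.42), the smallest of the 7. In Tag-seq 7 of 7 members were at least 2-fold lower in VMP, against 21.9% of the 12191 transcripts tested, and their median log2 ratio was -3.71 against -0.05 for all transcripts. All 7 also stand in the study's own list of Tag-seq differences, which was made on these libraries, so this direction is not independent evidence.

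In dissociated cells the levels of the same genes were lower, and 3 members had no count in at least 1 of the RNA-seq libraries. Their summed level was 75.8 CPM in SU RNA-seq (69.5 to 82.5, 531 counts) and 13.9 CPM in VMP RNA-seq (10.6 to 17.8, 61 counts), a 5.46-fold difference between tissues. Epcam had 19 counts in VMP (4.32 CPM) and 123 in SU (17.6 CPM), a log2 ratio of -2.20 (-3.02 to -1.53). Cdh1 had 12 counts in VMP (2.73 CPM) and 48 in SU (6.85 CPM), a ratio of -1.50 (-2.59 to -0.61). Both kept the direction seen in tissue, with intervals under 0.

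Cldn4 was at 0 in VMP RNA-seq against 311 counts in SU (44.4 CPM), at least 75.4-fold lower in VMP. Cldn3 was at 0 in VMP against 13 counts in SU (1.86 CPM), at least 3.15-fold lower. Cldn7 had no count in either RNA-seq library. Esrp1 had 15 counts in VMP (3.41 CPM) and 27 in SU (3.85 CPM), a log2 ratio of -0.37 (-1.41 to 0.57), so no difference was detectable at this depth. Grhl2 also had 15 counts in VMP (3.41 CPM) but 9 in SU (1.28 CPM), a ratio of 1.16 (-0.09 to 2.57), with an interval that includes 0.

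Of the 6 members with a testable RNA-seq level, 4 were at least 2-fold lower in VMP, against 21.3% of 17527 transcripts. Their median log2 ratio was -1.85, or -1.58 with the claudins at 0 taken at 3 counts, against 0.03 for all transcripts. The tissue ratio did not move the same way in all members between Tag-seq and RNA-seq. Cldn4 went further from 0, from -3.45 in Tag-seq to at least 75.4-fold lower in RNA-seq, and no direction could be given for Cldn3 and Cldn7. For the other 4, which had counts in every library, the ratio moved upward, past 0 in the case of Grhl2. RNA-seq minus Tag-seq was 2.31 for Epcam (1.61 to 3.0), 2.21 for Cdh1 (1.30 to 3.12), 2.97 for Esrp1 (2.04 to 3.90) and 3.22 for Grhl2 (1.89 to 4.55). These intervals exclude 0 for counting error, but they do not cover which cells entered RNA-seq. With 1 library in each cell of the design the difference itself has no replicate test.

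**Figure D2:**
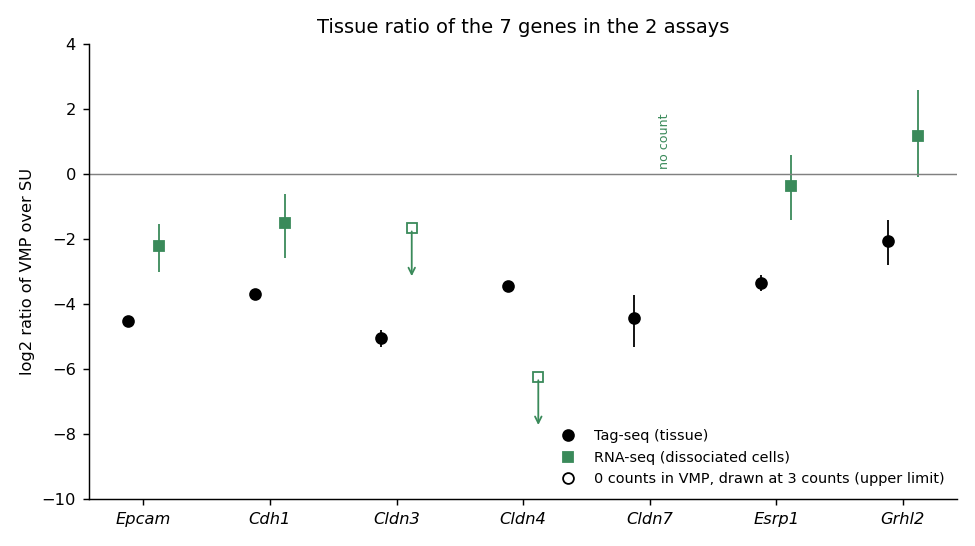
Log2 ratio of VMP over SU for each gene in Tag-seq (black circles) and RNA-seq (green squares), with 95% counting intervals as bars. Open squares with arrows are upper limits for Cldn3 and Cldn4, whose VMP RNA-seq count of 0 is taken as 3, and Cldn7 had no RNA-seq count. All 7 Tag-seq values lie under 0, from -5.05 to -2.06, while Grhl2 in RNA-seq lies at 1.16.

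The only replication across libraries is between the assays, so tissue and assay were also fitted together over the 4 libraries. This used edgeR's quasi-likelihood test, which left 1 residual degree of freedom. The p-values of this fit rest on the disagreement between assays and do not cover differences between animals or pools. By tissue, 4 of 7 members were lower in VMP at a Benjamini-Hochberg adjusted p under 0.05, against 1.30% of 18445 transcripts. In this edgeR fit the log2 fold change was -4.87 for Cldn4 (adjusted p = 5.02e-07), -5.13 for Cldn3 (adjusted p = 1.44e-06), -3.46 for Epcam (adjusted p = 0.00341) and -2.77 for Cdh1 (adjusted p = 0.00584). The other 3 did not pass it: Cldn7 had -4.36 (adjusted p = 0.0896), Esrp1 -2.03 (adjusted p = 0.171) and Grhl2 -0.53 (adjusted p = 1.00). Those passing were the adhesion genes and the 2 claudins with RNA-seq counts, and neither regulator was among them. The call of Cldn4 was lost with DESeq2, although its log2 fold change there was larger at -6.62 (adjusted p = 0.291).

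By assay, the same edgeR fit gave 6 of 7 members lower in RNA-seq, against 17.1% of transcripts. The log2 fold change of RNA-seq over Tag-seq was -7.58 for Epcam, -5.78 for Cdh1, -8.31 for Cldn3, -6.53 for Cldn4, -10.43 for Cldn7 and -4.35 for Esrp1, with the weakest adjusted p at 2.3e-07 (Cldn7). The fitted values of the claudins with counts of 0 depend on the prior count. Grhl2 had -1.85 (adjusted p = 0.300). The median log2 fold change over all transcripts in this fit was 1.30 by assay. Scaling by total count instead of TMM moved that median by 0.37, and the tissue median by 0.19.

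Gene by gene, the difference between tissue and dissociated cells was larger in SU for Epcam, Cdh1, Esrp1 and Grhl2 and larger in VMP for Cldn4. For Cldn3 and Cldn7, which were at 0 in VMP RNA-seq, the order of the tissues could not be given.

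In SU, Epcam went from 5526 CPM in tissue to 17.6 CPM in dissociated cells, 401-fold lower on the TMM scale and 315-fold lower by total count (log2 -8.64, -8.92 to -8.39). Cldn3 went from 439 to 1.86 CPM, 302-fold lower (log2 -8.18, -9.15 to -7.46). Cdh1 went from 585 to 6.85 CPM, 109-fold lower (log2 -6.75, -7.21 to -6.36). These intervals separate Cdh1 from both Epcam and Cldn3, while the last 2 overlap.

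Cldn7 went from 307 counts to 0 and was at least 111-fold lower in SU. Esrp1 went from 164 to 3.85 CPM, 54.2-fold lower (log2 -5.73, -6.37 to -5.21). Cldn4 went from 1195 to 44.4 CPM, 34.3-fold lower (log2 -5.10, -5.27 to -4.94), and was the member with the most RNA-seq counts in SU. The interval of Cldn4 overlaps with that of Esrp1 and lies apart from those of Epcam, Cldn3 and Cdh1, so the claudins did not share one size of difference.

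Grhl2 differed least, from 94 counts (11.4 CPM) to 9 (1.28 CPM), 11.4-fold lower in SU (log2 -3.43, -4.68 to -2.52). In SU 7 of 7 members were at least 4-fold lower in RNA-seq, against 20.6% of the 16446 transcripts tested. A transcript with few tags cannot show a large difference, so a second background is the 7124 transcripts with at least 10 CPM in SU Tag-seq, of which 35.0% were at least 4-fold lower. Over those the median log2 ratio was -1.14, and over the 7 members it was -6.75. A ratio as low as that of Epcam was found in 1.61% of these transcripts, of Cldn3 in 2.23%, of Cdh1 in 4.13%, of Esrp1 in 6.04%, of Cldn4 in 8.06% and of Grhl2 in 17.4%.

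In VMP the genes started lower in tissue and were again lower in dissociated cells. Epcam went from 273 to 4.32 CPM, 82.9-fold lower (log2 -6.34, -7.11 to -5.73). Cldn4 went from 973 counts to 0, at least 238-fold lower, and Cldn3 from 117 counts to 0, at least 28.6-fold lower. Cdh1 went from 50.4 to 2.73 CPM, 24.2-fold lower (log2 -4.54, -5.56 to -3.78). In VMP Cldn4 thus differed more than the members with RNA-seq counts there, while in SU its difference was one of the smaller ones. Cldn3 and Cldn7, also at 0 in VMP RNA-seq, could not be ranked against it.

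Esrp1 was 6.99-fold lower in VMP RNA-seq than in VMP Tag-seq (log2 -2.76, -3.68 to -2.03). Cldn7 had 15 counts in tissue and 0 in dissociated cells, at least 3.66-fold lower. Grhl2 had 24 and 15 counts, with a log2 ratio of -0.21 (-1.27 to 0.76) by TMM, and it was 0.894-fold as high in Tag-seq as in RNA-seq when scaled by total count, so its direction in VMP depended on the scaling. In VMP 6 of 7 members were at least 4-fold lower, or 5 with genes at 0 taken at 3 counts, against 17.9% of 17013 transcripts. Of the 5 members with at least 10 CPM in VMP Tag-seq, 5 were, against 2191 of all 7079 such transcripts. The median over the 7 members was -4.54.

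**Figure D3:**
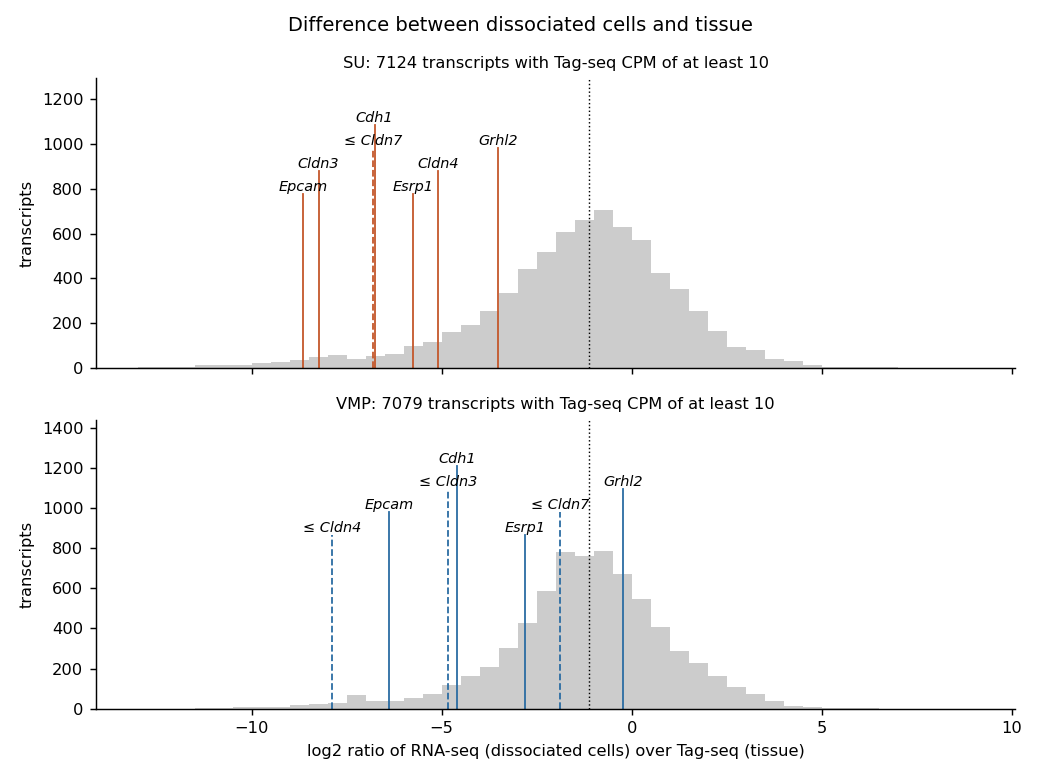
Histograms of the log2 ratio of RNA-seq over Tag-seq for transcripts with at least 10 CPM in Tag-seq, SU above and VMP below, with the 7 genes as vertical lines and the median of the histogram dotted. Dashed lines marked with a less-or-equal sign are upper limits for genes at 0 in RNA-seq, taken at 3 counts. In SU all 7 genes lie left of the median of -1.14. In VMP Grhl2 lies right of the median of -1.12. However, Grhl2 and Cldn7 had under 10 CPM in VMP Tag-seq and are not in that histogram. Over all transcripts tested in VMP the median was 1.24, which lies right of Grhl2.

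Junction genes outside the 7 were examined with fixed lists. The matched genes were those named in the study's tables of differences, so these too were partly chosen on these libraries. This holds for every list below. Of all transcripts tested, 20.6% in SU and 17.9% in VMP were at least 4-fold lower in RNA-seq. With edgeR 17.1% were lower by assay and 1.30% lower in VMP by tissue. These shares stand beside the counts of every list. Of 23 tight junction genes, 12 were matched. In SU 8 of the 12 were at least 4-fold lower in RNA-seq, among them the claudin Cldn8 (log2 -7.73), the scaffold protein Tjp1 (-5.93) and Cldn11 (-5.70). In VMP 5 of 11 were, while the junctional adhesion molecule F11r was higher in RNA-seq (log2 3.40, 31 counts in Tag-seq and 243 in RNA-seq). At least 4-fold higher values in RNA-seq were common, in 40.4% of the transcripts tested in SU and in 7493 of 17013 in VMP. With edgeR 6 of the 12 were lower by assay and 1 was higher. Between tissues, 3 of 12 were lower in VMP with edgeR. In Tag-seq 10 of 12 were at least 2-fold lower in VMP, against 21.9% of all transcripts tested. In RNA-seq 5 of 11 were, against 21.3%, and 3 of 11 were at least 2-fold higher.

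Of 10 adherens junction genes, 5 were matched. In SU Jup, which encodes plakoglobin, was at log2 -5.65, the P-cadherin gene Cdh3 at -4.93 and the nectin gene Nectin1 at -4.29. Ctnna1, an alpha-catenin that links classical cadherins to actin, went the other way in both tissues, with log2 3.06 in SU and 4.65 in VMP. By assay 2 of the 5 were lower and 1 was higher with edgeR, and 1 of 5 was lower in VMP by tissue. In Tag-seq 5 of 5 were at least 2-fold lower in VMP, against 21.9% of all transcripts tested. In RNA-seq 2 of 5 were, against 21.3%, and 1 of 5 was at least 2-fold higher.

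Of 11 desmosome genes, 10 were matched. In SU 7 of 10 were at least 4-fold lower in RNA-seq, with a median of -5.45 (-5.12 with genes at 0 taken at 3 counts), against 0.94 for all transcripts. Evpl, encoding envoplakin, was at least 195-fold lower, Dsg2 at least 35.1-fold lower, Dsp (desmoplakin) at log2 -6.99 and Dsc2 at -6.84. In VMP 3 of 9 were at least 4-fold lower and 4 were at least 4-fold higher, with a median of 0.61 against 1.24 for all transcripts. The periplakin gene Ppl, for one, had 1 count in VMP Tag-seq and 162 in VMP RNA-seq. With edgeR 5 of 10 were lower by assay and 1 was higher, and 1 of 10 was lower by tissue. In Tag-seq 10 of 10 were at least 2-fold lower in VMP than in SU, against 21.9% of all transcripts tested. In RNA-seq 1 of 9 was, against 21.3%, and 4 of 9 were at least 2-fold higher in VMP.

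Of 7 gap junction genes, 3 connexins were matched, and all 3 were at least 4-fold lower in SU RNA-seq, against 20.6% of transcripts. Gjb6 went from 1818 counts to 0, at least 659-fold lower, and 2 of the 3 passed the edgeR test by assay and 1 by tissue. The number of matched genes is too low in the tight, adherens and gap junction lists for a median to describe the whole list.

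Of 15 other regulators of the epithelial state listed, 12 were matched. In SU 6 of 12 were at least 4-fold lower in RNA-seq, against 20.6% of transcripts, with a median of -1.65 against 0.94. Ovol2, a repressor of mesenchymal genes, was at least 32.2-fold lower, and Esrp2, from the same family as Esrp1, was at log2 -4.21. Tfap2a was at -4.18. In VMP 4 of 10 were at least 4-fold lower, or 2 with genes at 0 taken at 3 counts, against 17.9% of transcripts. Their median was -1.36 against 1.24. With edgeR 4 of 12 were lower by assay and 4 of 12 lower in VMP by tissue, against 17.1% and 1.30% of transcripts.

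In both assays most of these matched regulators were lower in VMP than in SU. They were partly chosen on these libraries, as the matched genes of all lists were. In Tag-seq 11 of 12 were at least 2-fold lower in VMP, against 21.9% of transcripts, with a median of -3.39. In RNA-seq 9 of 11 were, against 21.3%, with a median of -4.02 (7 of 11 and -3.24 with genes at 0 taken at 3 counts). The epithelial Ets factor gene Elf3 had 10 counts in VMP Tag-seq and 317 in SU (log2 -5.03), and 6 and 155 in RNA-seq (log2 -4.12). Grhl3, from the same family as Grhl2, had 0 counts in VMP RNA-seq and 127 in SU, at least 30.8-fold lower. Grhl2 and Grhl3 therefore had values on opposite sides of 0 in RNA-seq.

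Snai1, Zeb2, Twist1 and Twist2, which repress Cdh1 and other epithelial genes, were 4 matched of 6 repressors listed. In SU 3 of the 4 were at least 4-fold higher in RNA-seq than in Tag-seq, with Zeb2 at log2 3.64, Twist1 at 3.11 and Snai1 at 2.27, while Twist2 was at -2.83. The 3 higher values lay under the upper quartile of all transcripts in SU (4.07), so this count is not a result about the repressors. In VMP none was 4-fold higher, with Zeb2 at -0.06, Snai1 at -0.53, Twist1 at -1.20 and Twist2 at -4.37. Between tissues, none of the 4 was 2-fold lower in VMP Tag-seq, against 21.9% of transcripts. In RNA-seq 3 were, against 21.3%, with Twist1 at -3.82, Zeb2 at -3.45 and Snai1 at -2.54. With edgeR 1 of the 4, Twist2, was lower by assay (log2 -3.60), none was higher and none passed by tissue. None of the 7 mesenchymal genes passed by tissue, and 1, the fibroblast receptor gene Pdgfra, was higher by assay (log2 2.11).

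**Figure D4:**
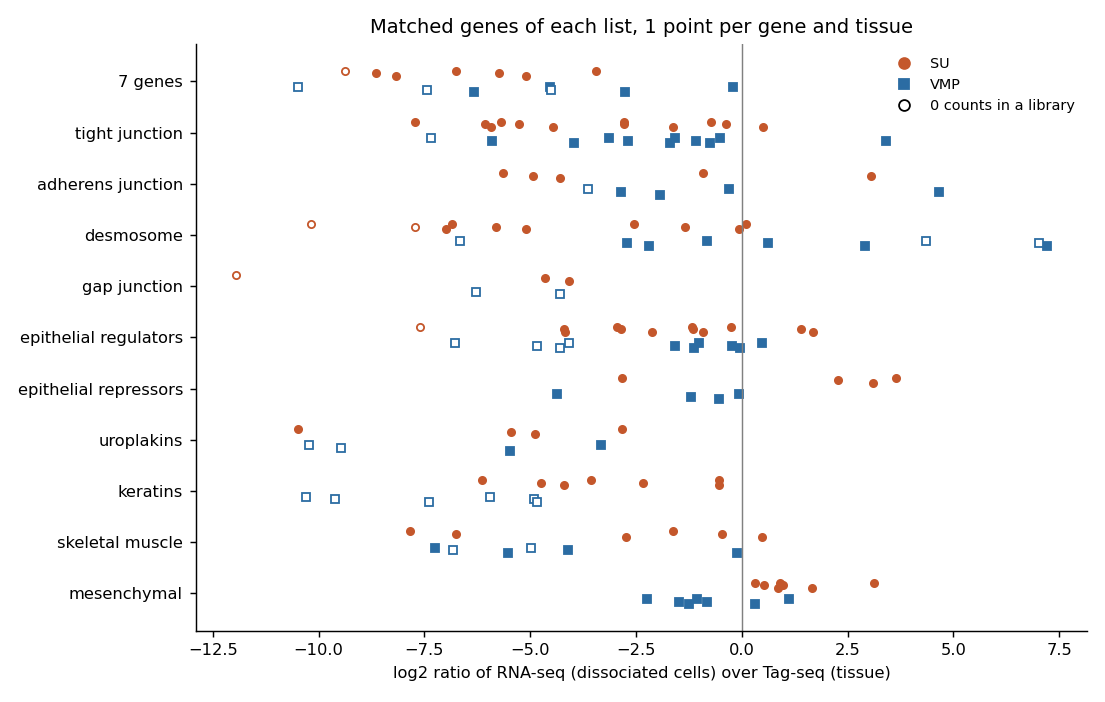
Log2 ratio of RNA-seq over Tag-seq for each matched gene of the lists, 1 point per gene, SU as circles and VMP as squares. Open symbols had 0 counts in 1 of the libraries compared and are drawn with a pseudocount of 0.5 counts. The 7 genes, gap junction genes, uroplakins and keratins lie left of 0 in both tissues, while the repressors lie mostly right of 0 in SU and left of it in VMP.

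Other epithelial genes moved with the 7, as did smooth muscle genes between assays and skeletal muscle genes in part. Their part in these results was not tested. In SU RNA-seq 0 of 3 matched endothelial genes and 0 of 7 mesenchymal genes were at least 4-fold lower, and in VMP 0 and 1. Over all transcripts the shares were 20.6% in SU and 17.9% in VMP. Of 7 smooth muscle genes listed 2 were matched, and both were at least 4-fold lower in both tissues. In SU Lmod1 was at log2 -7.33 and Des at -4.49. Of 2 matched leukocyte genes, 1 was at least 4-fold lower in each tissue. For Schwann cell genes it was 0 of 2 in SU and 1 of 2 in VMP, and for erythroid genes 0 of 2 and 1 of 1. The uroplakins, membrane proteins of the bladder and urethral lining, were matched for 4 of 5 and summed to 1523 CPM in SU Tag-seq, 235 in VMP Tag-seq, 53.5 in SU RNA-seq and 2.96 in VMP RNA-seq. All 4 were at least 4-fold lower in RNA-seq in both tissues, with Upk2 going from 3290 counts to 2 in SU. All 4 were also lower by tissue and by assay with edgeR, against 1.30% and 17.1% of transcripts. The keratins, epithelial intermediate filaments, were matched for 7 of 8 and summed to 2517 CPM in SU Tag-seq, 202 in VMP Tag-seq, 182 in SU RNA-seq and 0 in VMP RNA-seq.

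Keratins differed among themselves in SU as the 7 genes did. Krt7 was at log2 -6.14, Krt15 at -4.19 and Krt17 at -3.56, while the simple-epithelial pair Krt8 and Krt18 was at -0.55 and -0.54. All 7 keratins were lower by tissue and 5 by assay with edgeR, against 1.30% and 17.1% of transcripts. Skeletal muscle genes were not epithelial and yet behaved alike in part. Of these, 3 of 6 were at least 4-fold lower in SU RNA-seq and 5 of 6 in VMP, against 20.6% and 17.9% of transcripts. The contractile genes Tnnc2 (log2 -7.85) and Myh3 (-6.75) were as low in SU as several members, and 5 of 6 skeletal muscle genes passed by assay and 5 by tissue with edgeR. A large difference between assays was therefore also seen for genes that are not epithelial.

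The genes closest to the mean profile of the 7 were named from 1951 transcripts with symbols, by the root mean square distance of their centred log2(CPM + 1) profile over the 4 bulk libraries and the 2 sums of cells, among transcripts with at least 10 CPM in SU Tag-seq. The nearest were Cdcp1 (distance 0.331), Camsap3 (0.369), Casq2 (0.404), Clca5 (0.417) and Plet1 (0.435), followed by Syt8, Ripk4, Scnn1g, Msln and the tight junction gene Tjp3 (0.458). Cdcp1 had 22.7 CPM in VMP Tag-seq, 198 in SU Tag-seq, 0.682 in VMP RNA-seq, 6.99 in SU RNA-seq, 0.201 in summed VMP cells and 0.0679 in summed SU cells. The members themselves lay 0.515 (Esrp1) to 1.95 (Grhl2) from their mean, so all 10 were nearer to it than any member.

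Single cells held very few reads of the 7 genes. The summed level was 1.41 CPM over the VMP cells (1.02 to 1.90, 42 reads) and 2.49 CPM over the SU cells (2.05 to 3.0, 110 reads), 9.84 and 30.5 times less than in RNA-seq of the same tissue. Both sums rested on 1 cell each: without VMP cell 86 the VMP level was 0.205 CPM, and without SU cell 43 the SU level was 0.184 CPM. Cdh1, Cldn3, Cldn7 and Esrp1 had no read in any of the 115 cells. A count of 0, taken to allow 3 cells of the total, allows a share of cells with a read of up to 6.12% in VMP and 4.55% in SU. Of transcripts with at least 10 CPM in Tag-seq, 3.74% had no read in any VMP cell and 3.50% none in any SU cell, so these 4 genes, at 37.4 to 585 CPM in SU Tag-seq, were among a small group.

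Epcam was read in 5 of 49 VMP cells (10.2%, exact binomial interval 3.40 to 22.2) and in 8 of 66 SU cells (12.1%, 5.38 to 22.5), with exactly 1 read in each of the 13 cells. The shares in VMP and SU lay within each other's intervals, although in tissue Epcam was at 273 and 5526 CPM. Among transcripts with at least 10 CPM in Tag-seq, 107 in VMP (1.51%) and 78 in SU (1.09%) never had more than 1 read in a cell, and of these 6 and 3 were in as many cells as Epcam. Cells with an Epcam read had a median of 534361 counts in VMP and 729474 in SU, against 614376 and 631066 for all cells. With every cell thinned to 199849 counts, Epcam was left in 2 VMP and 4 SU cells.

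Cldn4 and Grhl2 showed the opposite pattern, many reads in 1 cell. Cldn4 had 102 reads in SU cell 43 and none in the other SU cells (1.52%, 0.0384 to 8.16) or in VMP cells. That cell held 765572 counts, of which Cldn4 was 133 CPM, with 590 reads of F11r and 507 of Jup. F11r was read in 66 of 66 SU cells with up to 907 reads, and Jup in 33 with up to 994. SU cell 43 had no keratin or uroplakin read. Its 7 mesenchymal genes summed to 7594 CPM, rank 65 of 66 SU cells, whose median was 30310. Grhl2 had 36 reads in VMP cell 86 (65.3 CPM) and 1 read in VMP cell 10, and none in SU cells. VMP cell 86 had 2 reads of Krt8 and 15602 CPM of mesenchymal genes, rank 9 of 49.

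Reads piled up in 1 cell were not particular to these genes. In VMP 111 transcripts with at least 10 CPM in Tag-seq (1.57%) were read in exactly 1 cell with 10 reads or more, and in SU 67 (0.940%). The pancreatic enzyme gene Cpa1, listed as foreign to this tissue, had 124 reads in 1 SU cell. In all, 7 of 49 VMP cells (14.3%, 5.94 to 27.2) and 9 of 66 SU cells (13.6%, 6.43 to 24.3) had a read of any member, and none had reads of 2 members. Each of these 16 cells had reads of 6 or 7 of the 7 mesenchymal genes, and the cells without a member read had 5 to 7 in VMP and 6 to 7 in SU.

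**Figure D5:**
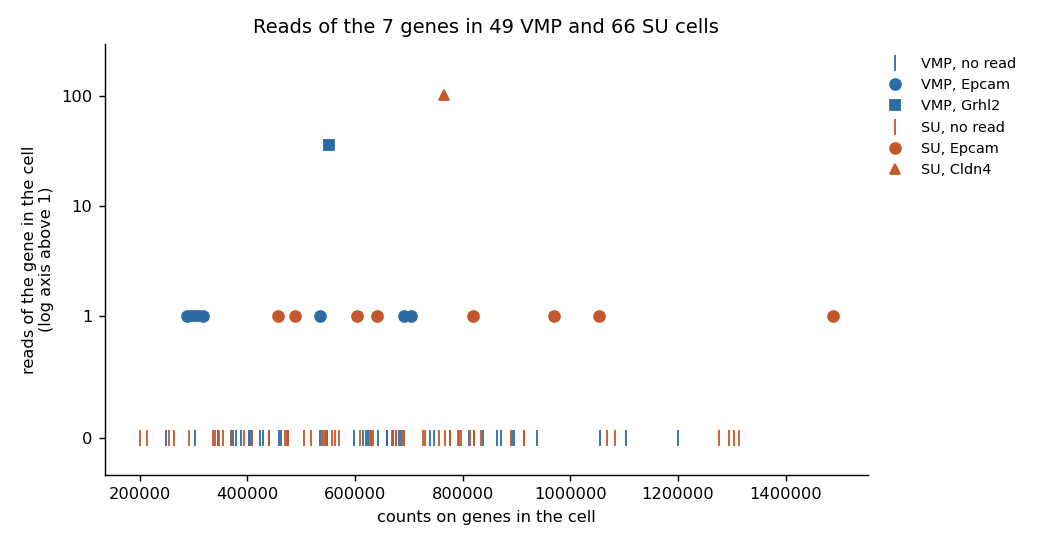
Reads of Epcam, Cldn4 and Grhl2 in each single cell (log axis above 1) against the counts on genes in that cell, with ticks at 0 for cells without a read of any of the 7 genes. All Epcam points lie at 1 read, while Cldn4 reached 102 reads in 1 SU cell and Grhl2 36 in 1 VMP cell.

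SU cell 45 held 166 reads of keratins and uroplakins, the most of any cell. This cell, the deepest at 1488320 counts, had 1 read of Epcam, 149 of Krt15, 12 of Upk3a, 4 of Krt18 and 1 of Upk1a. It also had 324 reads of the tight junction gene Lsr and 244 of Tjp1, which were read in 17 and 45 SU cells. Its mesenchymal genes summed to 27860 CPM, close to the SU median. Reads of a keratin or uroplakin were found in 12 VMP and 11 SU cells. F11r and Perp, by contrast, were read in all 49 VMP and all 66 SU cells, so not every junction gene was sparse.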

How the data were processed

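The 7 genes, the other gene lists and the tests were chosen with earlier results of these data known. The files, as deposited by the authors, hold raw read counts per Ensembl gene (Rnor_6.0). For Tag-seq the authors cut reads to the tag, aligned them with Bowtie2 and kept unique alignments outside mitochondrial DNA and random contigs. For RNA-seq and single cells, paired reads were trimmed with Trimmomatic 0.33 and aligned with TopHat, and Picard 1.128 was used, per the labels and methods. Strand use in counting was not given in the sources used here, so overlapping genes may share counts.

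Spike-in rows were left out of library sizes (1.30% and 1.12% of VMP and SU RNA-seq counts). Symbols came from the study's gene tables, of which the part used here held 2995 symbols, and matched 91 of 160 listed genes. Ratios used edgeR 4.0.16 TMM library sizes, a pseudocount of 0.5 counts and transcripts above 1 CPM in either library. The test across the 4 bulk libraries (tissue plus assay) was edgeR's quasi-likelihood test with Benjamini-Hochberg adjustment, with DESeq2 1.42.0 as alternative. Single ratios have exact binomial-based and levels exact Poisson intervals at 95%, and folds against 0 used 3 counts per library. All ratio and test code was tested on simulated counts. Cell numbers are those of the labels, which the study's methods give differently. Cells were not filtered, and no doublet caller was run on the 115 cells. All 7 members and all repressors were named, and in the other lists the 4 genes with the largest absolute log2 ratio among those whose higher library held 50 counts or more, or a part of these, since some are not reported here. The single cells, Krt8, Krt18, Pdgfra, Perp and Cpa1 were named after their values were seen.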

Additional observations from a re-analysis of the deposited data

Results flagged for a closer look

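Grhl2 was set apart because its values pointed in opposite directions in the 2 assays. Between VMP and SU, the Grhl2 log2 ratio came to -2.06 with Tag-seq (24 against 94 counts) and 1.16 with RNA-seq (15 against 9 counts). The difference was not tested, since there was 1 library for each tissue and assay, and the RNA-seq interval of counting error (-0.09 to 2.57) includes 0. Epcam, Cdh1, Cldn3, Cldn4 and Esrp1 were lower in VMP in both assays, and Cldn7 had no RNA-seq count to compare.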

How the results depend on the processing

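Bulk results were repeated under other library scalings, a pseudocount of 5 counts, no filter on low counts, or DESeq2. Single-cell results were repeated with read limits, thinned cells, means of cells, or spike-ins in the library size. They were also repeated without outlying cells or without the cell with the most reads. Of the 40 alternative values for the main counts and levels, 32 stayed within the set limits, and no called result reversed. The uncalled Grhl2 ratio of RNA-seq over Tag-seq in VMP changed sign, from -0.21 to 0.18 with total-count scaling. The 8 that moved concern single cells. Cells with a read of a member fell from 7 to 1 in VMP and from 9 to 1 in SU when at least 3 or at least 10 reads were asked for, and to 4 and 5 with each cell thinned to the shallowest cell. The summed level fell to 0.205 CPM in VMP and 0.184 CPM in SU without the cell with the most reads. Among values of single genes, 152 alternatives agreed within the limits, 9 moved and 1 lost its call, Cldn4 by tissue with DESeq2 (adjusted p = 0.291), where DESeq2 gave no adjusted p for Cldn7 and Grhl2. DESeq2 called 197 transcripts by tissue and edgeR 309, of which 240 were lower in VMP, and the causes were not tested. By assay edgeR called 3161 transcripts lower and 4557 higher in RNA-seq, and 2565 lower and 5146 higher with total-count scaling. No paired analysis was possible because the bulk libraries carry no replicate number and the 33 cell numbers shared by VMP and SU are chip positions of separate pools. The edgeR test by tissue had assay as a term. With 1 library per tissue and assay, none could be left out within an assay. Depth limits Cldn3, Cldn7, Esrp1 and Grhl2, with 0 to 27 counts in RNA-seq, so small differences between tissues were not detectable there.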

Other observations

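Some listed genes outside the 7 had few tags in VMP and yet reads in single cells, in shares of cells that differed widely. The desmosomal cadherin gene Dsg3 had 0 counts in VMP Tag-seq and 31 in SU Tag-seq, and was read in 49 of 49 VMP cells and 64 of 66 SU cells, with at most 15 and 20 reads in a cell. Ppl had 1 count in VMP Tag-seq, 162 in VMP RNA-seq and 3508 reads over the VMP cells, of which 3498 were in 1 cell. It was read in 9 of 49 VMP cells and 2 of 66 SU cells. Grhl3, from the family of Grhl2, was read in 25 of 66 SU cells and 4 of 49 VMP cells. These genes were chosen after their values were seen.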
